A study of Mus musculus with 20 samples.

Results

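The 10 genes described here encode the hypoxia-inducible factor (HIF) system of the mouse intervertebral disc and its secreted target VEGF-A. They are the alpha subunits Hif1a, Epas1 (HIF-2 alpha) and Hif3a, the beta subunit Arnt, the prolyl hydroxylases Egln1, Egln2 and Egln3, the ubiquitin ligase subunit Vhl, the asparaginyl hydroxylase Hif1an and the target Vegfa. They were taken by gene symbol from the 51789 genes of the deposited table, each symbol matched 1 gene, and all 10 passed the filter on low values that left 16383 genes for testing.

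HIF is a heterodimer of an oxygen-sensitive alpha subunit and the constitutive beta subunit ARNT. In the presence of oxygen, prolyl hydroxylases mark the alpha subunit for recognition by the VHL complex and destruction by the proteasome, while the asparaginyl hydroxylase encoded by Hif1an blocks its coactivator binding. In low oxygen the dimer binds DNA at a short core motif and activates genes of glycolysis, angiogenesis and oxygen sensing, Egln3, Egln1 and Vegfa among them. The disc is largely avascular, and the nucleus pulposus at its core is known as a hypoxic, glycolytic tissue.

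RNA came from the gelatinous core of the disc, the nucleus pulposus (NP), and from its outer fibrous ring, the annulus fibrosus (AF), of BL6 mice killed at 24 months of age. All mice had received intraperitoneal injections from 18 months of age for 6 months, either of the solvent DMSO (vehicle) or of MDL-800 in DMSO. MDL-800 is a synthetic activator of SIRT6, a chromatin deacylase. Vehicle and treated mice shared age, solvent and injections. The 20 libraries, 5 for each tissue under each treatment, are named by the number in their label. The labels do not say whether the libraries of a group came from separate mice, so p-values measure the spread between these libraries. No younger or uninjected mice enter, and the labels speak of cells while the protocol describes tissue dissected under a microscope.

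Estimated depth was 12.8 M to 22.0 M reads per library (M, megareads). The summed level of 8 NP markers, most of it from Car3, was 25711 to 32972 scaled FPKM in NP libraries and 2500 to 15143 in AF libraries. That of 8 AF markers was 794 to 1589 in NP and 3021 to 9452 in AF, so both labels matched their markers. AF libraries also held more RNA of blood, marrow and bone. The summed level of 7 neutrophil markers was 5847 to 31620 in AF and 181 to 2983 in NP, that of 7 red blood cell markers 600 to 3234 and 27.7 to 209, and that of 7 bone markers 250 to 2078 and 1.57 to 170. The sums of 7 skeletal muscle markers, 785 to 8480 in AF and 10.3 to 1062 in NP, overlapped. The summed level of 10 endothelial markers was 84.9 to 184 in AF and 15.9 to 31.7 in NP. In such bulk tissue, fewer cells of a type and less RNA per cell cannot be told apart. Among NP markers in AF, vehicle library 9 stood apart with 15143, against at most 7536 in the other AF libraries.

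Vegfa, Egln3, Egln1 and Hif3a are the members whose levels separated the tissues most, and the 250 bases before the RefSeq start of each are shown for that reason (5′ to 3′ on the strand of the gene, GRCm38.p6). Capitals mark matches to the HIF core motif, searched as ACGTG and GCGTG on both strands, so that a match to the other strand reads CACGT or CACGC.
Egln1, chr8:124949255-124949504, minus strand: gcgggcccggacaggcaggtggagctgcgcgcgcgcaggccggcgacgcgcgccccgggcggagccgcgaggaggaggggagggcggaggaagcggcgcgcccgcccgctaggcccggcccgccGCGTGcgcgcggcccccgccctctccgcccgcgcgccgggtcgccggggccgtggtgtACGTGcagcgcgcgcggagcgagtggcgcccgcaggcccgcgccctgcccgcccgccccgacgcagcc
Egln3, chr12:54203875-54204124, minus strand: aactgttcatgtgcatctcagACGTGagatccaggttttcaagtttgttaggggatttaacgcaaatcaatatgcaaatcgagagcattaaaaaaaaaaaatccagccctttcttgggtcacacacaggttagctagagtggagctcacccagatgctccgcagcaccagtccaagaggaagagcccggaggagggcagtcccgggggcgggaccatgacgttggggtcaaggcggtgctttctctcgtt
Hif3a, chr7:17062428-17062677, minus strand: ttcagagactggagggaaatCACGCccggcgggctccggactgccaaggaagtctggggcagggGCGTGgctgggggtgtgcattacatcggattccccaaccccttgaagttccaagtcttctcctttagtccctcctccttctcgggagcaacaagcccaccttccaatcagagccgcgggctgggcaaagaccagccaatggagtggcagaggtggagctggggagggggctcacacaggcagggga
Vegfa, chr17:46032378-46032627, minus strand: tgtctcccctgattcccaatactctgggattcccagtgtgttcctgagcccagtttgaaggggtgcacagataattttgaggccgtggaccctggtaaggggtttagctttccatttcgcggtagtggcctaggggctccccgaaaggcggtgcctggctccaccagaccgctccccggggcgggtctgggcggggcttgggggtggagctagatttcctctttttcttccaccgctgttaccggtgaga
The Egln1 window held 2 matches, of which ACGTG began 68 bases before the start and GCGTG 126 bases before it. The Egln3 window held 1, which began 229 bases before the start, and the Hif3a window held 2, at 230 and 186 bases. The Vegfa window, at the first of its RefSeq starts, held none, which says only that these letters are not in these 250 bases; a second window inside the gene, at 46025164 to 46025413, held 2. Of the other members with a RefSeq window, Hif1a, Arnt and Egln2 held a match, and Vhl and Hif1an did not. Counting every window of a gene, at least 1 match was found in 7 of 9 members (77.8%), in 20 of 22 HIF target genes (90.9%) and in 41.5% of all 27025 genes with a window, and in 38.6% of all 32851 windows.

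The levels of the 10 members spanned a wide range within each tissue. Because FPKM is scaled by transcript length, they can be ordered. NP vehicle libraries had Vegfa highest at 191 ± 23.6 scaled FPKM (SD, n = 5), then Egln3 at 128 ± 20.6, Hif1a at 80.4 ± 11.7 and Egln1 at 79.7 ± 6.11. Hif1a and Egln1 overlapped, and Vegfa exceeded Egln3 in 5 of 5 libraries although their ranges overlapped. Below them stood Epas1 at 42.4 ± 2.87, Arnt at 28.4 ± 1.14, Vhl at 15.7 ± 3.11, Hif1an at 14.5 ± 1.82, Egln2 at 10.3 ± 5.01 and Hif3a at 2.27 ± 0.346. Vhl overlapped Hif1an, and Hif1an overlapped Egln2. In AF vehicle libraries the order began with Hif1a at 68.7 ± 10.5, followed by Vegfa at 53.1 ± 28.1, Egln3 at 38.1 ± 14.8, Epas1 at 31.6 ± 7.19, Egln1 at 31.0 ± 9.08 and Arnt at 30.5 ± 3.98, and every neighbour among these overlapped. Egln2 at 12.2 ± 2.9, Vhl at 12.1 ± 0.859 and Hif1an at 11.4 ± 1.24 overlapped as well, and Hif3a was again lowest at 0.569 ± 0.302.

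**Figure D1:**
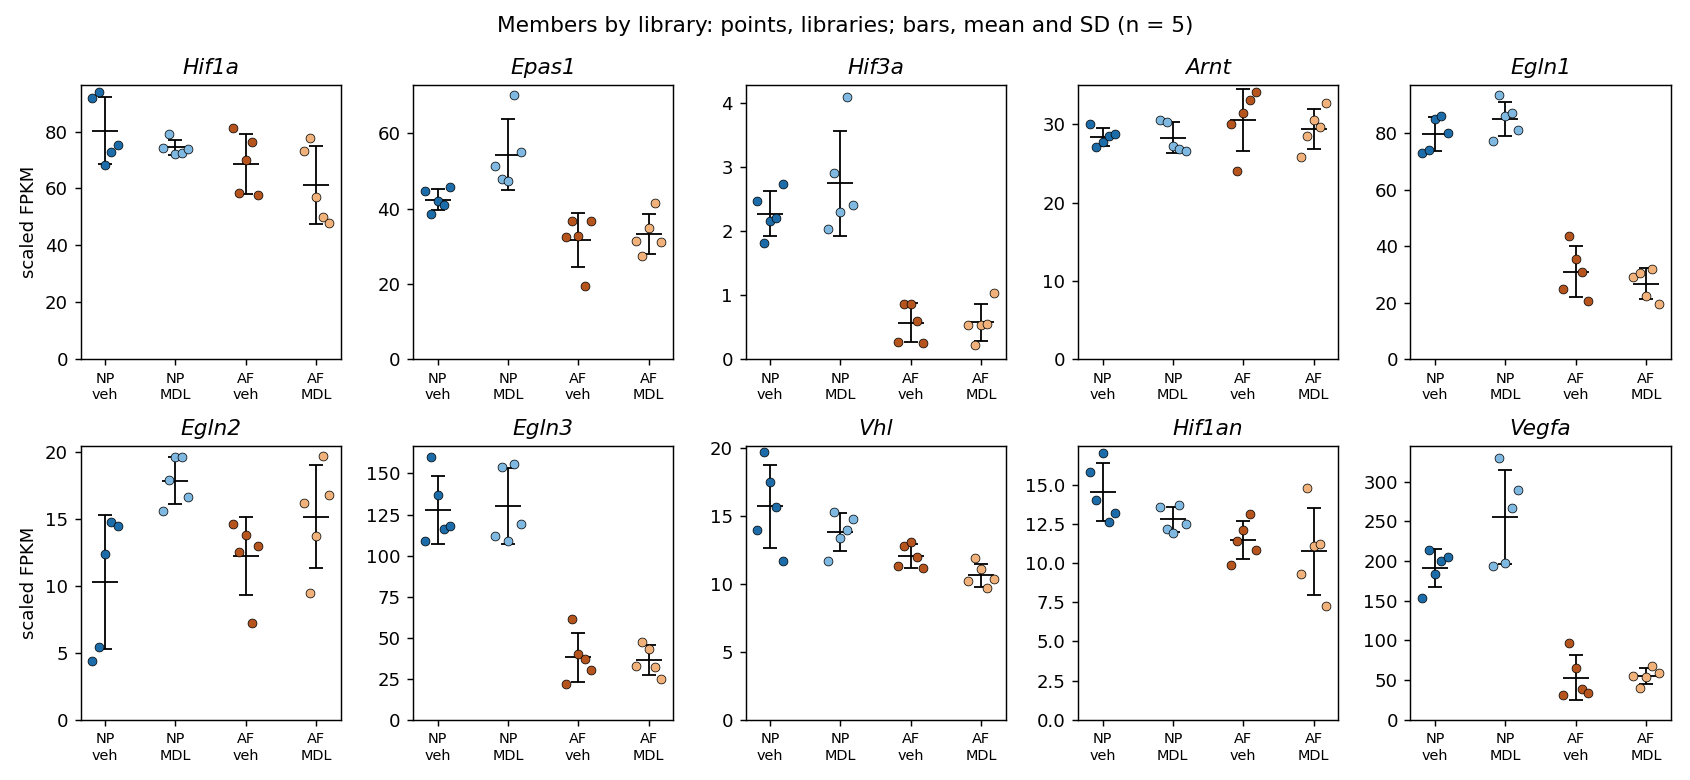
Scaled FPKM (vertical axis, a separate scale from 0 in each panel) of the 10 members in the 20 libraries, with NP and AF under vehicle (veh) and MDL-800 (MDL) side by side. Points are libraries, and bars are the mean and SD of 5. Vegfa, Egln3, Egln1 and Hif3a lie higher in every NP library than in every AF library, while Arnt lies at similar levels in all 4 groups.

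The first comparison asked how the HIF system differs between the core and the ring of the old disc. In vehicle mice, Vegfa, Egln3, Egln1, Hif3a, Epas1 and Hif1an were higher in NP, and no member was lower. These 6 of 10 called higher (adjusted p under 0.05, limma with Benjamini-Hochberg adjustment over 16383 genes) stand beside 21.8% of all genes tested, and the 0 of 10 called lower beside 33.9%. Of the 10, 5 (Epas1, Hif3a, Egln1, Egln3 and Vegfa) were higher in every NP than in every AF library, beside 15.1% of all genes. Hif3a is in both counts, although it passed the filter on low values only through its NP libraries. The median log2 fold change of the members was 0.39, against -0.08 over all genes. In MDL-800 mice 6 of 10 were again called higher, beside 25.6% of all genes, 0 of 10 were called lower, beside 37.2%, and the same 5 did not overlap, beside 18.5%. There Vhl passed the threshold and Hif1an did not. The share of all calls that were higher in NP, 39.2% in vehicle mice, was 62.3% under quantile normalization, which moved the median gene to 0.20 and called 7 members higher and 0 lower.

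**Figure D2:**
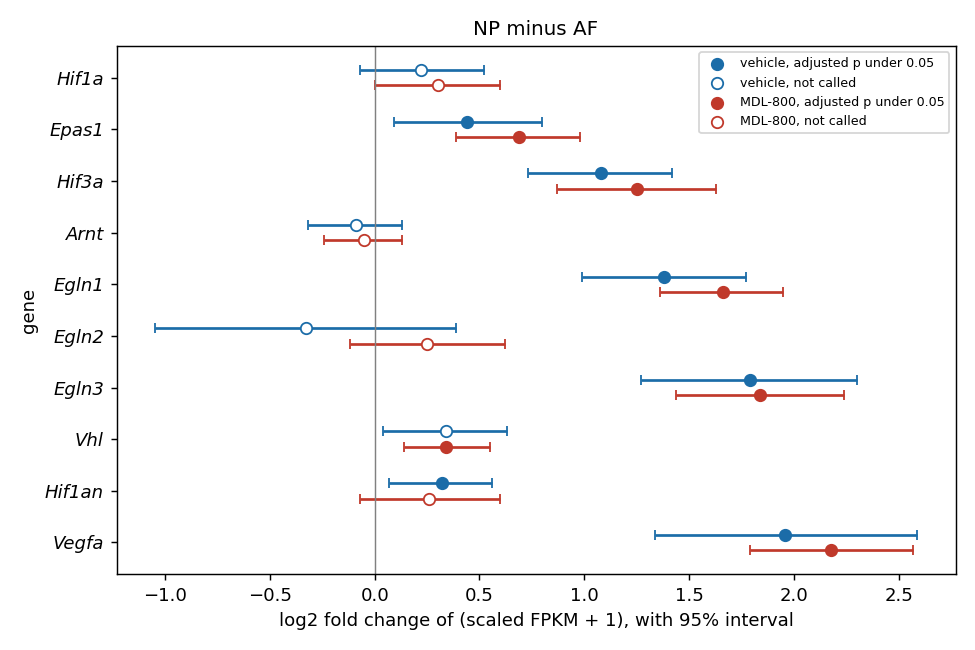
Log2 fold change of (scaled FPKM + 1), NP minus AF, with 95% limma interval (horizontal axis) for each member (vertical axis) in vehicle and in MDL-800 libraries, 5 against 5. Filled points have an adjusted p under 0.05. Vegfa, Egln3, Egln1 and Hif3a lie above 1 in both comparisons, while the intervals of Arnt and Egln2 span 0.

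Among the alpha subunits, Hif1a, the broadly expressed one, differed little between tissues. Its scaled FPKM was 91.7, 94.1, 68.1, 72.7 and 75.3 in NP vehicle libraries 1, 2, 3, 5 and 6, and 81.2, 58.4, 70.0, 76.2 and 57.6 in AF vehicle libraries 8, 9, 10, 12 and 13. The groups overlapped, with NP libraries 1 and 2 highest. On the log2 scale NP exceeded AF by 0.22, with a 95% interval from -0.07 to 0.52 (limma, adjusted p = 0.177). Under MDL-800 the values were 74.4, 79.0, 72.2, 72.6 and 73.9 in NP libraries 15, 18, 19, 20 and 22, a narrow band, and 73.3, 77.9, 56.9, 50.1 and 47.9 in AF libraries 25, 27, 28, 29 and 30. AF libraries 25 and 27 lay within the NP range and the other 3 below it. The log2 fold change of 0.30 was not called (limma, adjusted p = 0.0715, and 0.015 to 0.242 over the other settings tried). Without AF MDL-800 library 25 its adjusted p was 0.0329, and without library 27 it was 0.015. The gene lies on chromosome 12 at 73901375 to 73947530, plus strand, and shares 330 exonic nucleotides with the antisense gene Gm15283 on the other strand. Gm15283 was picked out after its values were seen: it was 6.86 to 21.4 scaled FPKM in NP vehicle and 0.671 to 5.44 in AF vehicle, which is 2.21 ± 0.41 higher in NP on the log2 scale (SE; adjusted p = 0.000956 by limma), and 2.76 ± 0.17 under MDL-800 (adjusted p = 1.14e-06). The library kit was stranded, but whether reads were assigned by strand is not given in the sources used here, so reads from the shared bases cannot be told apart.

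Epas1, which encodes HIF-2 alpha and is also known for its expression in endothelium, was higher in NP. It measured 44.7, 38.5, 42.0, 41.0 and 45.7 scaled FPKM in NP vehicle (libraries in the order above) and 32.4, 36.7, 32.8, 19.3 and 36.8 in AF vehicle. All NP libraries lay above all AF libraries, by a small margin, and AF library 12 was lowest. NP exceeded AF by 0.44 ± 0.16 log2 units (SE; adjusted p = 0.0366 by limma). This call is weak: the adjusted p was 0.0505 to 0.0736 when NP vehicle library 1, 3, 5 or 6 or AF vehicle library 8 or 10 was left out, 0.0686 with no filter and 0.0692 on unscaled FPKM (range over the settings tried 0.00385 to 0.0692). Without AF library 12 the difference was 0.28 (adjusted p = 0.0205). In MDL-800 mice it was 51.3, 47.8, 47.2, 70.3 and 54.9 in NP and 31.4, 27.5, 34.9, 41.4 and 31.1 in AF, again without overlap, with a log2 fold change of 0.69 ± 0.13 (adjusted p = 0.00108). Of the endothelial markers, 10 of 10 were called lower in NP vehicle, beside 33.9% of all genes, with a median log2 fold change of -2.28. Some of them, such as Tek at 0.209 scaled FPKM in NP vehicle, passed the filter on low values only through AF libraries. The part of endothelium in the Epas1 levels was not tested.

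Hif3a, a subunit whose splice forms can restrain the others, was the lowest member in all 4 groups. NP vehicle libraries held 2.47, 1.81, 2.15, 2.20 and 2.73 scaled FPKM and AF vehicle libraries 0.273, 0.862, 0.862, 0.602 and 0.246. Each NP library was above each AF library, at a ratio of means of 3.99, and the log2 difference of 1.08 ± 0.15 (SE; adjusted p = 0.000187 by limma) is understated by the pseudocount at such low levels; with a pseudocount of 0.1 it was 1.95. In MDL-800 libraries the ranges were 2.03 to 4.09 in NP and 0.226 to 1.03 in AF, at a ratio of 4.8 (limma, adjusted p = 0.000106). Hif3a passed the filter on low values only through its NP libraries, so these p-values are no independent support for the difference. Arnt, the shared beta subunit, was 27.1 to 30.1 in NP vehicle, 24.0 to 34.1 in AF vehicle, 26.6 to 30.6 in NP MDL-800 and 25.8 to 32.7 in AF MDL-800. The 4 ranges overlapped, and neither tissue comparison called it: the log2 fold change was -0.09 with a 95% interval from -0.32 to 0.13 in vehicle and -0.05 with one from -0.24 to 0.13 in MDL-800. Its sign turned under quantile normalization and after removal of the GC trend.

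Among the prolyl hydroxylases, Egln3 (PHD3) and Egln1 (PHD2) were higher in NP and Egln2 (PHD1) was not. Egln3, on chromosome 12 at 54178981 to 54203860, measured 109, 160, 137, 116 and 118 scaled FPKM in NP vehicle and 21.7, 61.4, 40.1, 37.0 and 30.2 in AF vehicle. The groups were far apart, and AF library 9 was the highest of the ring. The ratio of means was 3.36, and the log2 difference was 1.79 ± 0.23 (SE; adjusted p = 0.000102 by limma). The MDL-800 values of 112, 154, 109, 156 and 119 in NP and 33.0, 47.4, 43.3, 32.2 and 24.7 in AF gave 1.84 ± 0.18 (adjusted p = 1.09e-05).

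Egln1, the main oxygen sensor of the family, lies on chromosome 8 at 124908587 to 124949324. It was 73.1, 73.9, 85.2, 86.1 and 80.0 scaled FPKM in NP vehicle and 24.7, 43.7, 35.3, 30.8 and 20.5 in AF vehicle. NP libraries varied little among themselves, and AF library 9 was again highest in AF. Core exceeded ring by 1.38 ± 0.18 log2 units (SE; adjusted p = 9.41e-05 by limma). Under MDL-800, 77.4 to 93.4 in NP stood against 19.5 to 31.9 in AF, at 1.66 ± 0.14 (adjusted p = 3.59e-06). Egln2, on chromosome 7 at 27158658 to 27166802, was 4.42, 5.44, 12.4, 14.8 and 14.5 in NP vehicle and 14.6, 12.5, 13.8, 7.21 and 13.0 in AF vehicle. The groups overlapped, since NP libraries 1 and 2 lay below all AF libraries and NP libraries 5 and 6 level with the highest of them. NP minus AF was -0.33 on the log2 scale, with a 95% interval from -1.05 to 0.39 (limma, adjusted p = 0.421). Without NP library 1 it was -0.10, without NP library 2 it was -0.16, with the GC trend of each library removed -0.07, and without 4 libraries of low GC slope (NP vehicle 1 and 2, AF vehicle 12 and AF MDL-800 27) 0.04. It was 0.25 under MDL-800, from -0.12 to 0.62 (adjusted p = 0.209). Within the family, Egln1 was 5.53 to 16.5 times Egln2 in NP vehicle libraries and 1.58 to 4.27 times in AF vehicle libraries, without overlap; the highest ratio is that of NP library 1. Egln3 was 1.35 to 2.16 times Egln1 in NP vehicle and 0.879 to 1.47 times in AF vehicle, ranges that overlapped.

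Vhl and Hif1an, which act on the alpha subunit after or beside the prolyl hydroxylases, differed by about 0.3 on the log2 scale. Vhl ranged from 11.7 to 19.7 scaled FPKM (median 15.7) in NP vehicle and from 11.2 to 13.1 (median 12.0) in AF vehicle. NP library 6 lay within the AF range and the other 4 NP libraries above it. A log2 difference of 0.34 ± 0.13 (SE) missed the threshold (limma, adjusted p = 0.0504, and 0.00379 to 0.174 over the other settings tried); without NP library 6 it was 0.43 (adjusted p = 0.0116). In MDL-800 mice Vhl was called at the same 0.34 ± 0.09 (limma, adjusted p = 0.00816, and 0.000254 to 0.123 over the other settings tried). Its values were 11.7 to 15.3 in NP and 9.69 to 11.9 in AF. Hif1an ranged from 12.6 to 17.0 in NP vehicle and from 9.88 to 13.1 in AF vehicle, with an overlap at NP library 5 and AF library 12. It was 0.32 ± 0.11 log2 units higher in NP (SE; adjusted p = 0.032 by limma). That call was lost, at adjusted p of 0.0506 to 0.0775, without NP vehicle library 1, 2 or 3 or AF vehicle library 8, 9 or 13, and on unscaled FPKM at 0.0892 (range over the settings tried 0.00171 to 0.0892). In MDL-800 libraries Hif1an was 0.26 higher in NP (adjusted p = 0.154), and without AF library 27 it was 0.38 (adjusted p = 0.0231).

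Vegfa, the angiogenic growth factor and classic HIF target, was the most abundant member in NP and had the largest log2 fold change of the 10 between tissues, although the ratio of means of the far lower Hif3a was larger. It lies on chromosome 17 at 46016993 to 46032369, minus strand. NP vehicle libraries held 154, 214, 184, 200 and 205 scaled FPKM and AF vehicle libraries 31.3, 97.2, 65.0, 38.7 and 33.3. The lowest NP library, number 1, stood above the highest AF library, number 9. NP held 3.61 times the AF mean, a log2 difference of 1.96 ± 0.28 (SE; adjusted p = 0.000193 by limma). With MDL-800 the values were 194, 330, 197, 267 and 290 in NP and 54.9, 40.1, 54.5, 67.4 and 58.6 in AF, a ratio of 4.64 and a log2 difference of 2.18 ± 0.18 (adjusted p = 3.66e-06). Set against its regulator, Vegfa was 1.68 to 2.76 times Hif1a in NP vehicle libraries and 0.385 to 1.66 times in AF vehicle libraries, without overlap.

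AF vehicle library 9, which had the highest summed NP markers of the AF libraries, also had the highest Vegfa, Egln3 and Egln1 of all 10 AF libraries. Without it the log2 fold changes in vehicle mice were 2.21 for Vegfa (limma, adjusted p = 2.35e-05), 1.97 for Egln3 (2.44e-05), 1.51 for Egln1 (3.34e-05) and 1.14 for Hif3a (0.00022), each larger than with it. The part of NP tissue in the AF libraries in these levels was not tested.

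**Figure D3:**
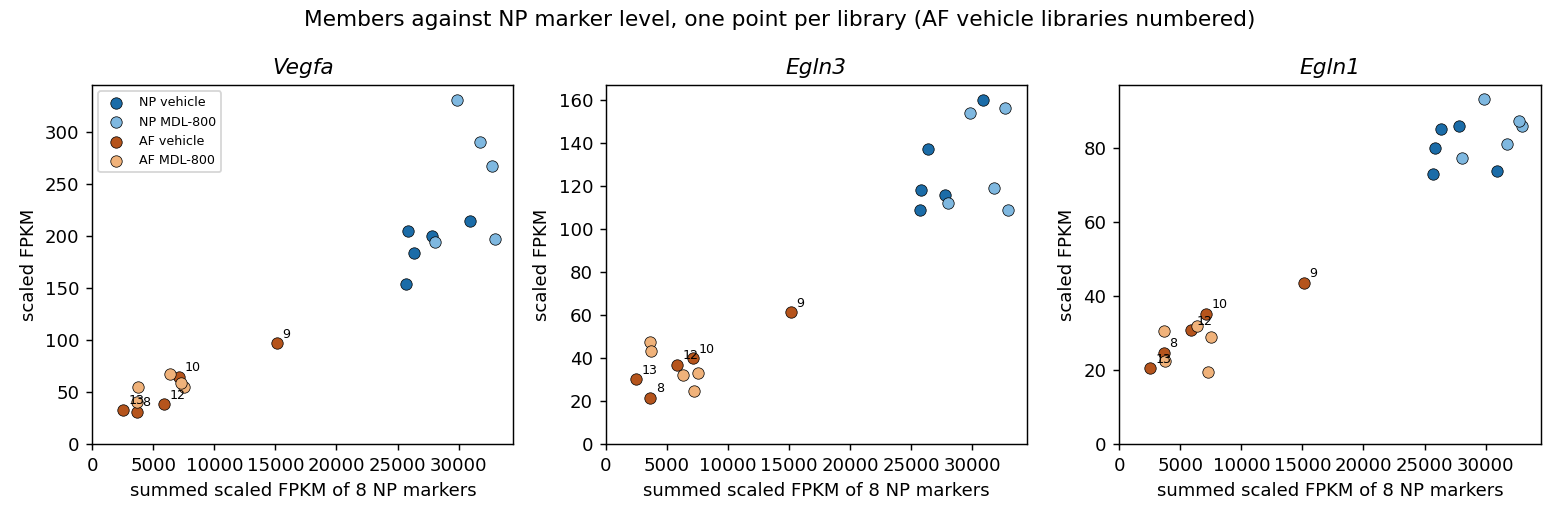
Scaled FPKM of Vegfa, Egln3 and Egln1 (vertical axes) against the summed scaled FPKM of 8 NP markers (horizontal axis), 1 point per library, coloured by group, with AF vehicle libraries numbered. NP libraries form a cluster at 25711 or more, AF libraries a cluster at 7536 or less, and AF vehicle library 9 lies between them at 15143.

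The targets of HIF were described from a list of 30 genes other than the members, of which 29 were tested and Epo was not. In vehicle mice 19 of the 29 were higher in NP (beside 21.8% of all genes), 5 were lower (beside 33.9%) and 5 were not called, with a median log2 fold change of 0.79 against -0.08 over all genes. The named rises were Slc2a1, the glucose transporter GLUT1, at 644 ± 160 against 150 ± 115 scaled FPKM (SD, n = 5), a log2 difference of 2.38 (adjusted p = 0.000945 by limma), and Car9, a carbonic anhydrase of the cell surface, at 41.2 ± 9.65 against 8.19 ± 4.81 (2.35, adjusted p = 0.000192). The named falls were Lox, which crosslinks collagen, at 5.01 ± 1.88 against 129 ± 76.6 (-4.27, adjusted p = 2.90e-05), and Angptl4, an inhibitor of lipoprotein lipase, at 1.19 ± 0.413 against 7.07 ± 4.73 (-1.75, adjusted p = 0.000597). Picked out after their values were seen, the glycolytic enzymes Ldha (1193 ± 77.8 against 599 ± 187) and Pgk1 (789 ± 129 against 321 ± 107) and the mitophagy receptor Bnip3 (880 ± 90.2 against 256 ± 116) rose as well, by 1.05, 1.34 and 1.90. Genes of like function, also picked out afterwards, fell or stayed level. The glycolytic regulator Pfkfb4 was 7.68 ± 1.45 against 16.2 ± 5.8 (-0.94, adjusted p = 0.00467 by limma). The carbonic anhydrase Car12 was 0.0468 ± 0.0474 against 1.18 ± 0.917 (-0.96, adjusted p = 0.00663 by limma). Car12 passed the filter on low values only through AF libraries. The glucose transporter Slc2a3 was level, at -0.04. In MDL-800 mice 20 of the 29 were higher (beside 25.6% of all genes), 5 lower (beside 37.2%) and 4 not called. The median of the 29 was 0.74. There the named genes were Adm, the vasodilator adrenomedullin, at 90.5 ± 32.7 against 8.07 ± 1.97 (3.30, adjusted p = 1.83e-06), Slc2a1 at 3.07, Lox at -4.14 and Angptl4, at 1.22 ± 0.288 against 7.96 ± 1.61 (adjusted p = 1.92e-06).

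**Figure D4:**
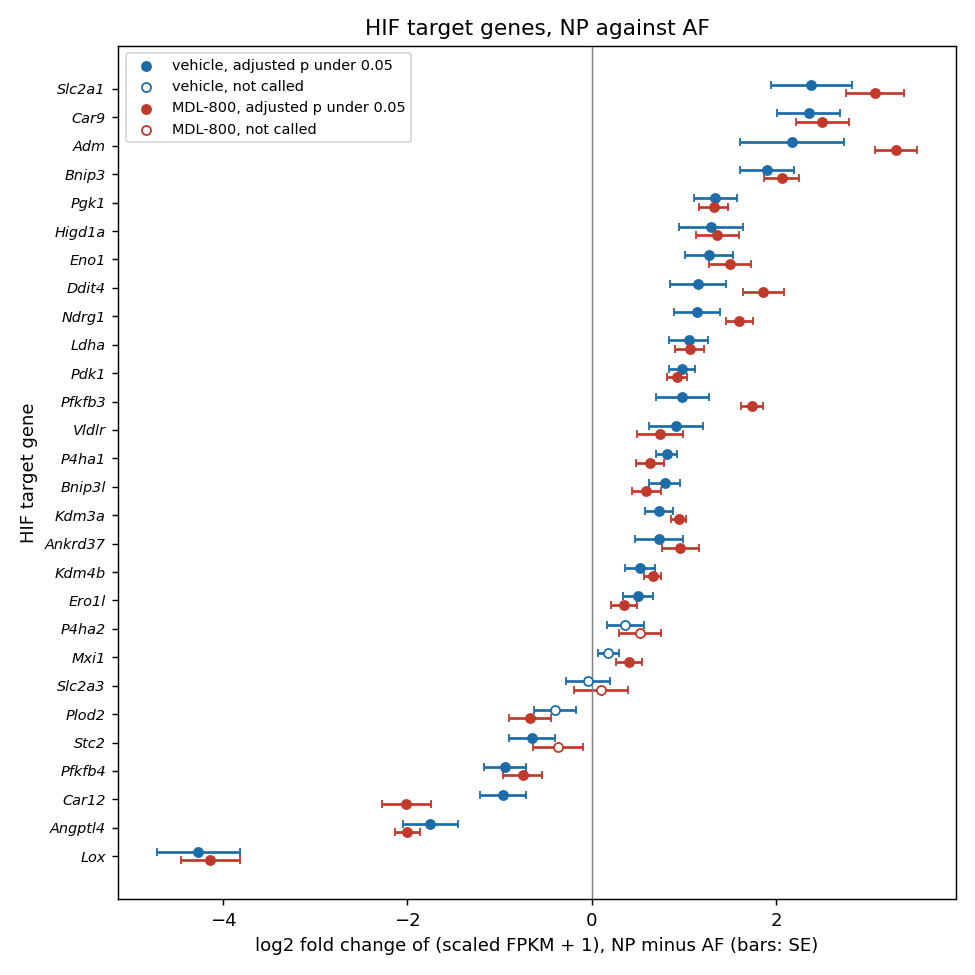
Log2 fold change of (scaled FPKM + 1), NP minus AF, with its SE (horizontal axis) for the tested HIF target genes reported here (vertical axis), in vehicle and in MDL-800 libraries. Filled points have an adjusted p under 0.05; Slc2a1, Car9 and Adm stand at the top and Lox at the bottom in both comparisons.

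Of the other VEGF ligands and the receptors, 9 were tested: 3 were higher in NP vehicle, 5 lower and 1 not called, beside 21.8% higher and 33.9% lower over all genes. Flt1, a receptor that binds VEGF-A tightly and can act as a decoy, was 16.6 ± 5.3 scaled FPKM (SD, n = 5) in NP against 8.14 ± 1.49 for AF, a log2 difference of 0.92 (adjusted p = 0.00217 by limma), and the coreceptor Nrp2 was 80.0 ± 18.6 and 36.4 ± 2.45 (1.09, adjusted p = 0.000116). Kdr, the main signalling receptor of VEGF-A, was 0.216 ± 0.12 in NP and 5.66 ± 1.72 in AF (-2.42, adjusted p = 5.22e-06). The other coreceptor, Nrp1, was 0.559 ± 0.387 and 17.9 ± 5.59 (-3.57, adjusted p = 4.05e-06). Under MDL-800 the same 4 genes were named, with log2 fold changes of 1.03, 0.97, -2.58 and -3.56. Kdr, Flt4 and Vegfc, with NP vehicle means of 0.216, 0.113 and 0.0931, passed the filter on low values only through AF libraries. Nrp1 passed it mainly through them. These genes are among the 5 called lower in NP vehicle, and their p-values are no independent support. Kdr fell together with the endothelial markers, of which Cdh5 was 0.35 ± 0.171 in NP vehicle and 13.2 ± 6.31 in AF vehicle. The part of endothelium in the receptor levels was not tested.

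Of 11 HIF partners and cofactors, 3 were higher in NP vehicle and 3 lower, with a median log2 fold change of 0.03, and 4 were higher and 2 lower under MDL-800. Over all genes the shares were 21.8% and 33.9% in vehicle and 25.6% and 37.2% in MDL-800 mice. Cited2, which competes with the HIF alpha subunit for the coactivators CBP and p300, was 54.5 ± 14 scaled FPKM in NP vehicle and 28.7 ± 5.76 in AF vehicle (SD, n = 5), a log2 difference of 0.89 (adjusted p = 0.00194 by limma), and 1.23 higher under MDL-800. The transcriptional repressor Bhlhe40, itself HIF-induced, was 323 ± 104 in NP and 98.0 ± 20 in AF of MDL-800 mice (1.68, adjusted p = 6.84e-05). Of 10 genes of the VHL complex and of HIF stability, 2 were higher and 2 lower in vehicle mice, and 3 and 3 in MDL-800 mice. Cul2, the cullin scaffold of the VHL ligase, was 10.6 ± 0.817 in NP vehicle and 13.8 ± 2.53 in AF vehicle (-0.33, adjusted p = 0.037), and the deubiquitinase Usp33 was 14.6 ± 0.98 and 20.7 ± 2.65 (-0.47, adjusted p = 0.00303). Usp33 fell by 0.50 in MDL-800 mice too, where the deubiquitinase Usp20 was 1.10 higher (adjusted p = 0.000622) and the scaffold Rack1 fell by 0.47 (adjusted p = 0.016).

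The second comparison asked whether MDL-800 changed these genes in either tissue. No member passed the threshold in NP (0 of 10, beside 0.250% of all genes tested) or in AF (0 of 10, beside 0% of all genes). At an unadjusted limma p under 0.05 there were 3 of 10 members in NP, beside 14.1% of all genes, and 0 of 10 in AF, beside 1.65%. Epas1 and Egln2 were higher in every NP MDL-800 library than in every NP vehicle library, which held for 3.50% of all genes in that direction; in AF no member was apart, beside 0.226% of all genes in either direction. Simulated data used each gene's spread within groups, pooled over all 20 libraries of both tissues. On these data the NP comparison found a change of 1 on the log2 scale for 72% of the changed genes and a change of 2 for 93.5%. The spread of the NP libraries alone was not simulated.

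**Figure D5:**
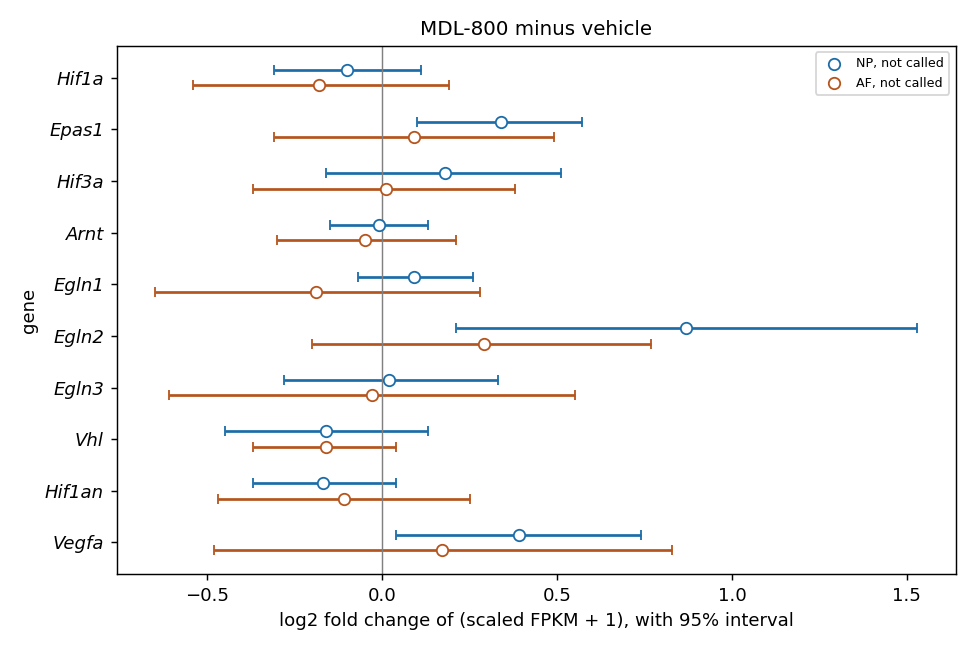
Log2 fold change of (scaled FPKM + 1), MDL-800 minus vehicle, with 95% limma interval (horizontal axis) for each member (vertical axis) in NP and in AF, 5 libraries against 5. No point has an adjusted p under 0.05; the NP intervals of Epas1, Egln2 and Vegfa lie above 0 and those of the other members span it.

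Epas1 in NP was 38.5 to 45.7 scaled FPKM in vehicle and 47.2 to 70.3 in MDL-800 libraries, a difference of 0.34 ± 0.11 (SE, log2) that was not called (limma, adjusted p = 0.182, and 0.182 to 0.442 over the other settings). NP MDL-800 library 20 was the highest, and without it the difference was 0.24. Vegfa was 191 ± 23.6 in vehicle and 256 ± 59.4 in MDL-800 libraries (SD, n = 5), a difference of 0.39 with a 95% interval from 0.04 to 0.74 (limma, adjusted p = 0.299). MDL-800 libraries 18, 20 and 22 lay above all vehicle libraries and libraries 15 and 19 within their range. In AF the same differences were 0.09, from -0.31 to 0.49, for Epas1 and 0.17, from -0.48 to 0.83, for Vegfa.

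Egln2 showed the largest treatment value, with 15.6, 17.9, 19.6, 19.6 and 16.6 scaled FPKM in NP MDL-800 libraries against the 4.42 to 14.8 of NP vehicle. The difference of 0.87 ± 0.30 (SE, log2) was not called (limma, adjusted p = 0.219, and 0.199 to 0.442 over the other settings). The longest Egln2 transcript has the highest GC content of the members, 62.2%, and the NP groups differed in how levels ran with GC content: the slope of the log2 level per 10 points of GC was -0.29 to -0.01 in NP vehicle, with libraries 1 and 2 at -0.29 and -0.28, and 0.02 to 0.09 in NP MDL-800. Egln2 was lowest in those 2 vehicle libraries. With each library's GC trend removed its difference was 0.44 (adjusted p = 0.438), and without the 4 libraries of low slope it was 0.34 (adjusted p = 0.293). Under the same settings Epas1 was 0.29 and 0.32, and Vegfa 0.39 and 0.35. The slopes of the NP groups did not overlap, so the parts of GC content and of MDL-800 in the Egln2 value cannot be told apart. Of the 7 NP markers tested, 3 were higher in value in every NP MDL-800 than in every NP vehicle library, without a call. Over all genes the share apart in that direction was 3.50%. The notochordal transcription factor T was 2000 ± 212 against 1404 ± 252 (limma, adjusted p = 0.138). The keratins were 1085 ± 119 against 825 ± 57.7 for Krt8 (adjusted p = 0.12) and 1969 ± 276 against 1123 ± 394 for Krt19 (adjusted p = 0.141). The other 4 NP markers overlapped between the groups: the log2 difference was 0.00 for Krt18, -0.01 for Cd24a, 0.14 for Car3 and -0.59 for Shh. The part of NP cell content in the values of Epas1, Egln2 and Vegfa was not tested.

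The remaining values between treatments were not called. In NP, Hif1a was -0.10 (95% interval -0.31 to 0.11), Hif3a 0.18 (-0.16 to 0.51), Arnt -0.01 (-0.15 to 0.13), Egln1 0.09 (-0.07 to 0.26), Egln3 0.02 (-0.28 to 0.33), Vhl -0.16 (-0.45 to 0.13) and Hif1an -0.17 (-0.37 to 0.04). In AF, the value was -0.18 for Hif1a (-0.54 to 0.19), 0.29 for Egln2 (-0.20 to 0.77), -0.19 for Egln1 (-0.65 to 0.28), -0.03 for Egln3 (-0.61 to 0.55) and -0.16 for Vhl (-0.37 to 0.04). Hif3a was at 0.01 (-0.37 to 0.38), Arnt at -0.05 (-0.30 to 0.21) and Hif1an at -0.11 (-0.47 to 0.25). Arnt had the narrowest interval of the 10 in NP. The difference of the MDL-800 effect between tissues, NP minus AF, was called for 0 of 10 members, beside 0% of all genes, at an adjusted p of 1 each by limma and with 0 members at an unadjusted p under 0.05. Its largest values were 0.58 for Egln2 (-0.23 to 1.39), 0.28 for Egln1 (-0.20 to 0.76), 0.24 for Epas1 (-0.21 to 0.70) and 0.22 for Vegfa (-0.52 to 0.96). On simulated data this contrast found 45.5% of changes of 1 and 87.5% of changes of 2.

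The HIF target genes were not called under MDL-800 either, with 0 of 29 in NP, beside 0.250% of all genes, and 0 of 29 in AF, beside 0%. An unadjusted limma p under 0.05 was found for 5 in NP and 1 in AF, shares near the 14.1% and 1.65% of all genes, and the median log2 difference was 0.07 in NP against -0.03 over all genes and -0.06 in AF against 0.01. Picked out after their values were seen, these included Ddit4, an inhibitor of mTORC1 signalling, at 123 ± 39.2 against 62.0 ± 21.4 scaled FPKM in NP (SD, n = 5, adjusted p = 0.139), Adm, Kdm4b and, downward, Bnip3l, and in AF Car12. Of 10 genes of the VHL complex and HIF stability none was called, beside the same 0.250% in NP and 0% in AF. An unadjusted limma p under 0.05 was found for 4 of them in NP, beside 14.1% of all genes. Elob, the elongin B subunit that joins VHL to its cullin, was the nearest to a call, at 211 ± 13.7 in MDL-800 and 93.1 ± 37.7 in vehicle libraries without overlap (limma, adjusted p = 0.0671). It was picked out for that value. The NP groups differed in GC slope, and the part of this in the Elob value was not tested. None of the 11 partners or 9 VEGF ligands and receptors was called in either tissue, beside the same 0.250% and 0% of all genes. At an unadjusted limma p under 0.05 there was 1 of each in NP and 0 in AF, beside 14.1% and 1.65%.

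Across the 10 NP and across the 10 AF libraries, Vegfa was set against each other member and Epas1 against the mean endothelial marker level, 20 relations in all on the log2 scale. None passed after adjustment over the 20. The strongest was between Hif3a and Vegfa in AF, with Pearson's r of 0.77 (permutation p = 0.0107, adjusted 0.11), Spearman's rho of 0.70 (permutation p = 0.0305, adjusted 0.361) and r of 0.84 without the 2 libraries farthest from the median of Hif3a. In NP the same pair gave r of 0.48 (permutation p = 0.165). Hif1a and Vegfa gave r of -0.18 in NP (permutation p = 0.647), which turned to 0.65 without the 2 farthest libraries, and -0.51 in AF (permutation p = 0.133), which was -0.45 without them. Epas1 and the endothelial markers gave r of 0.74 in AF (permutation p = 0.011, adjusted 0.11), which was 0.40 without the 2 farthest libraries, and -0.21 in NP (permutation p = 0.584), which turned to 0.46 without them.

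As a description, genes were ranked by the lower of their 2 correlations with Vegfa, within the 10 NP and within the 10 AF libraries, over 10742 genes. The closest to Vegfa was Adm, another HIF target, with r of 0.85 in NP and 0.88 in AF, and the 5 closest also held Hdac11, a deacetylase (0.77 and 0.83), Trim29 (0.76 and 0.85) and Hoxa7 (0.76 and 0.76). Closest to Hif1a were Atp6ap1, a subunit of the vacuolar proton pump (0.89 and 0.90), Tmed7 (0.96 and 0.89), Scfd1 (0.86 and 0.91), Arcn1 (0.85 and 0.85) and Ppt1 (0.95 and 0.85), all but Ppt1 and Atp6ap1 known from transport between the endoplasmic reticulum and Golgi. The genes share the depth and GC trend of each library, the AF values include vehicle library 9 with its high NP markers, and the correlations carry no p.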

How the data were processed

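Per the labels' protocols, NP and AF tissue was dissected, and stranded total RNA libraries depleted of ribosomal RNA were made (input 50 ng, 14 PCR cycles). The authors deposited FPKM values, scaled by transcript length and library size, with 2 decimals, for 51789 genes in 20 libraries, each column matched by name. The submitters' processing notes name STAR 2.7.11b and mm10; the annotation, the counting program and its use of strand are not given in the sources used here. FPKM values keep no counts, so depth was estimated from the steps of low values in 6791 single-exon genes (78.4% to 83.6% of low values lay within 0.15 reads of a whole read), and no count test was run.

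FPKM was divided by a median-ratio factor per library (0.93 to 1.06, from 11308 genes that reach 1 FPKM in every library), giving scaled FPKM, and log2(scaled FPKM + 1) was tested. The 16383 genes that reach 1 FPKM in 5 or more of the 20 libraries were tested. Each pair of groups was fitted with limma 3.58.1 in R 4.3.3 (two-sided, mean-variance trend, Benjamini-Hochberg adjustment over all genes tested, threshold 0.05), and the difference between tissues in a fit of 4 groups. The fold changes understate those of low genes. Relations across libraries used permutation tests of 100000 resamples, two-sided, in Python 3.11.15 with scipy 1.17.1. The fits were tested on simulated data with 200 changed genes, where 67% of tissue changes of 1 and 94% of changes of 2 (log2) were found. Between tissues in vehicle mice 9127 genes were called, far more than were changed in the simulation. The shares found therefore do not describe the tissue comparison of these data.

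The members and the gene lists were chosen with earlier results of these data known. All members are named; other list genes are the 2 largest called rises and falls per list with at least 5 scaled FPKM in the higher group and no overlap, or are said to be picked out afterwards. Ero1a was found under its older symbol. A gene of the HIF target list and a gene close to Vegfa in correlation are counted but not reported by name here. Gene coordinates are from GENCODE M21 (GRCm38) and promoter windows from RefSeq (GRCm38.p6). Alternatives were another pseudocount, no filter, unscaled or quantile-normalized values, 4 groups in each fit, no trend, removal of the GC trend, leaving out each library, and 2 chosen after seeing the data: a block on a number shared by NP and AF column names, and leaving out the 4 libraries whose log2 level fell by over 0.10 per 10 points of GC content.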

Additional observations from a re-analysis of the deposited data

Results flagged for a closer look

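In 40 sets of 5 libraries (10 genes in 4 groups), the highest or lowest library was compared with the rest. The measure was its gap over the range. Chance marks about 1 set in 20, and 2 of the 40 were marked, a share near that. AF vehicle library 12 stood apart as the lowest of its group for both Epas1, at 19.3 scaled FPKM against 32.4 to 36.8 in the other 4, and Egln2, at 7.21 against 12.5 to 14.6. The same library had the lowest slope of log2 level on GC content in its group, -0.24 per 10 points; its part in these values was not tested. Without it the log2 fold change between tissues in vehicle mice was 0.28 for Epas1 (limma, adjusted p = 0.0205) and -0.49 for Egln2 (adjusted p = 0.228).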

How the results depend on the processing

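The counts of members and of HIF target genes called stayed within 1.5 times under every alternative tried: in vehicle mice 4 to 7 members and 21 to 25 targets passed between tissues, in MDL-800 mice 5 to 9 and 20 to 25, and 0 by treatment in each tissue. Leaving out single libraries gave 4 to 6 and 6 to 8 members. Vegfa, Egln1, Egln3 and Hif3a kept their tissue calls in all of these. Of them, Hif3a passed the filter on low values only through its NP libraries. Quantile normalization moved the median gene from -0.08 to 0.20 (vehicle) and 0.21 (MDL-800) and the share of tissue calls that are higher in NP from 39.2% to 62.3% and from 40.7% to 61.7%. It also called Hif1a (0.42), Egln2 (0.48) and Hif1an (0.53) in MDL-800 mice.

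Uncalled values changed sign as follows; the cause was not tested. Between tissues Arnt was 0.05 in vehicle and 0.11 in MDL-800 mice after quantile normalization, and 0.02 and 0.10 with the GC trend removed; Egln2 was 0.04 in vehicle mice without the 4 low-slope libraries. By treatment in NP, Arnt was 0.04 and Egln1 -0.08 with the GC trend removed, and Hif1a 0.05 without the 4 libraries. In AF, Hif3a was -0.01 under quantile normalization and with the GC trend removed, and Epas1 -0.01 without the 4. For the difference between tissues, Vhl was -0.01 on unscaled FPKM, and Hif1an 0.04 without the 4. Over single-library omissions, the NP treatment values ran from -0.03 to 0.01 for Arnt and -0.05 to 0.11 for Egln3. Those in AF ran from -0.07 to 0.16 for Epas1, -0.09 to 0.09 for Hif3a, -0.21 to 0.16 for Egln3 and -0.23 to 0.01 for Hif1an. The differences between tissues ran from -0.00 to 0.17 for Hif1a, -0.01 to 0.12 for Arnt, -0.14 to 0.23 for Egln3, -0.09 to 0.09 for Vhl, -0.17 to 0.06 for Hif1an and -0.03 to 0.37 for Vegfa.

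Some NP and AF columns share a second number whose meaning is not given. Libraries with the same number did not deviate together (correlations of -0.18 to 0.29; highest with the own number in 2 of 8), so they were not treated as pairs. With a replicate block on that number, 6 members passed between tissues in vehicle and 5 in MDL-800 mice, with Vhl gained (adjusted p = 0.036) and Hif1an lost (0.0665) in the former and Vhl lost (0.123) in the latter. The block turned the differences of the treatment effect to -0.09 for Arnt, -0.04 for Egln3 and -0.03 for Vhl. Depth behind single values is not given in the table, so no counting interval could be set on low genes such as Hif3a.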
